A study of Mus musculus with 24 samples.

Results

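The NADPH oxidase of phagocytes and the enzymes that clear its products were followed as 9 genes of 24091 in the count table, each found by its symbol: the oxidase genes Cybb, Cyba, Ncf1, Ncf4 and Rac2, and the clearing enzymes Sod1, Sod2, Cat and Gpx1. All 9 passed the filter on low counts and were among the 13520 genes tested. RNA-seq was performed on sorted bone marrow LSKs (Lin- Sca-1+ c-Kit+ cells, a mixture of hematopoietic stem and early progenitor cells) from 24 mice, 6 in each of 4 groups with 3 females and 3 males per group. The comparisons ask how loss of the microRNA miR-142 alters LSKs with and without the leukemia oncogene BCR-ABL. WT mice were miR-142+/+ and miR-142 KO mice were miR-142-/-, in both cases without induced BCR-ABL. CP CML mice were miR-142+/+ BCR-ABL and BC CML mice were miR-142-/- BCR-ABL. According to the study's methods, all were on a B6 background, the mice that lack miR-142 and carry the transgene came from a cross of both lines, and BCR-ABL was driven from the SCL promoter in a tet-off transgenic. LSKs of the BCR-ABL mice were sorted 2 weeks after tetracycline was withdrawn, and the methods state no withdrawal for the WT and miR-142 KO mice. The names chronic phase (CP) and blast crisis (BC) are those of the mouse model. Ages were not given in the sources used here, and the methods give n = 5 per group where 6 libraries were analysed.

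The phagocyte oxidase moves electrons from NADPH across a membrane onto oxygen and so makes superoxide. Its catalytic subunit, the product of Cybb, is held in the membrane with the product of Cyba, and becomes active when cytosolic subunits, among them the organizer (Ncf1) and the regulatory subunit (Ncf4), and a GTP-bound Rac protein (in neutrophils mainly Rac2) join it. Superoxide dismutases, copper and zinc dependent in the cytosol (Sod1) and manganese dependent in mitochondria (Sod2), turn superoxide into hydrogen peroxide, which catalase (Cat) in peroxisomes and glutathione peroxidase (Gpx1) in cytosol and mitochondria reduce to water. In bone marrow the oxidase is best known from neutrophils, monocytes and macrophages, and reactive oxygen species (ROS) levels are held low in quiescent hematopoietic stem cells.

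Total counts per library ran from 16267965 to 24687077. The targeted gene Mir142 had 94 to 127 counts per library in WT and 68 to 153 in CP CML LSKs, and 0 counts in each miR-142 KO and BC CML library, which allows up to 3 counts per library (this limit covers counting error only). The gate markers Kit and Ly6a (which encodes Sca-1) and the progenitor markers Cd34 and Flt3 were detected in every library. Their summed level was lower in each group without miR-142 than in its control, with no overlap: 2139 to 2624 CPM (counts scaled to the TMM-adjusted total of each library) in miR-142 KO against 2758 to 3527 in WT, and 2094 to 2383 in BC against 2555 to 2988 in CP CML. Median Flt3 was 396.2 CPM in miR-142 KO against 817.3 in WT and 282.1 in BC against 686.2 in CP CML. Median Ly6a went the other way, at 81.49 against 42.41 and 106.1 against 51.62 CPM, and neither gene overlapped in either pair. Kit was lower without overlap in BC CML (745.6 to 883.5 CPM) than in CP CML (973.9 to 1240). It overlapped between miR-142 KO (661.9 to 971.5 CPM) and WT (783.6 to 1220), and Cd34 overlapped in both pairs. Read counts of the members per library were lowest for Cybb in WT replicate 4 and reached 19571 for Gpx1 in a BC CML library. WT replicate 3, a female, stood apart for the results below. Its summed macrophage marker level was 960.1 CPM (7 genes including C1qa, Cd5l and Vcam1), against 52.75 to 176.4 CPM in the other 5 WT libraries. Replicate 3 of miR-142 KO, also a female, stood apart too. Its neutrophil-primed progenitor markers summed to 2763 CPM, against 6177 to 7534 CPM in the other 5 miR-142 KO libraries. Its macrophage sum was 11.94 against 56.44 to 93.13 CPM, and its erythroid sum 5.618 against 32.02 to 127.2 CPM.

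The arms of the deleted microRNA are shown because their seeds (bases 2 to 8, in capitals) were used to search the members for matches. Other kinds of pairing were not searched. Both sequences are from RefSeq on build GRCm38.p6, on the plus strand of chromosome 11, at chr11:87756867-87756887 and chr11:87756903-87756925.
mmu-miR-142a-5p: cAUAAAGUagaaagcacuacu
mmu-miR-142a-3p: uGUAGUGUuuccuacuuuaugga

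The reverse complement of each seed was searched in the longest annotated 3′ UTR of each gene. ACTTTAT, which pairs with the 5p seed, was in 0 of the 9 members and in 15.8% of 12609 tested genes with a 3′ UTR. ACACTAC, which pairs with the 3p seed, was in 1 member and in 6.92% of those genes. That member was Cat, where the match lies in a CA-rich stretch at base 426 of a 907-base 3′ UTR (chr2:103454324-103454330, minus strand, mm10) and is followed by an A. It is shown in capitals with its flanks.
Cat 3′ UTR site: gcaatacacACACTACacacacata

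No match says only that these letters were not in these UTRs, several of which are short (72 bases in Sod1, 102 in Cyba, 189 in Ncf4 and 207 in Gpx1).

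Promoters (250 bases before and 50 after the annotated start, RefSeq, GRCm38.p6, 5′ to 3′ on the gene's strand) were matched for 7 of the 9 members. Those of Cybb and Ncf1 are printed since both genes were higher in CP CML than in WT LSKs, that of Gpx1 since it was higher in each group without miR-142 than in its control, and that of Sod1 since it passed the test in none of the pairs of groups. Capitals mark matches on either strand to GAGGAA (the core of sites bound by the myeloid factor PU.1) and TGACNNNGC (the antioxidant response element bound by NRF2). They also mark TTGCNNAA (a pattern bound by C/EBP factors), TATAAA and GGGCGG (the GC box). Overlapping matches run together.
Cybb, chrX:9469275-9469574, minus strand: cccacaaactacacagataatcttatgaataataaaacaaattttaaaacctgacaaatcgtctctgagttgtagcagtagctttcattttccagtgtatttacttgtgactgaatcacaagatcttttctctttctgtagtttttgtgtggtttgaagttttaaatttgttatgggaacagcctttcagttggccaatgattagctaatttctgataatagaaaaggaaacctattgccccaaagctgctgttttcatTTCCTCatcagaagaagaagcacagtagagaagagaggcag
Ncf1, chr5:134229576-134229875, minus strand: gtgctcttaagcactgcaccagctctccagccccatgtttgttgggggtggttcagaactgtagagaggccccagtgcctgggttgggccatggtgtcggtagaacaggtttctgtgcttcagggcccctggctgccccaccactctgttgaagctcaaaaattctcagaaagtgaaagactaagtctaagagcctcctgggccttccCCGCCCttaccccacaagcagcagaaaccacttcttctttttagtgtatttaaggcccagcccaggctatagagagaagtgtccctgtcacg
Gpx1, chr9:108338830-108339129, plus strand: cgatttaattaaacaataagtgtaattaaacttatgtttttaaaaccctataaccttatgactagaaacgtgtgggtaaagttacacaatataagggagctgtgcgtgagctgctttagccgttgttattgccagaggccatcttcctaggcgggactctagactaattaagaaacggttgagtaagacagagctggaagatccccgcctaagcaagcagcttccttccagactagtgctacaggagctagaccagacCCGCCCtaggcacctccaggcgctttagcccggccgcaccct
Sod1, chr16:90220512-90220811, plus strand: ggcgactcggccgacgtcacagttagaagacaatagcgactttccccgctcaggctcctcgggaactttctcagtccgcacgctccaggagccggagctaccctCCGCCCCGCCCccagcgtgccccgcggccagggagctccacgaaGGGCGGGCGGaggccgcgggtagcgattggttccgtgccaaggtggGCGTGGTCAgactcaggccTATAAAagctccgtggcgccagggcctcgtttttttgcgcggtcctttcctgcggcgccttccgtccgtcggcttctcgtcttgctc

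The Cybb promoter held 1 CpG and that of Ncf1 held 3, Cyba had 9, Cat and Gpx1 11 each, Sod2 21 and Sod1 34, beside a median of 20 over 10447 promoters of tested genes. GAGGAA was found in Cybb (on the minus strand, 9 bases past the start), Sod2 and Cat, in 28.3% of all 32851 promoters and in 27% of those of tested genes. TGACNNNGC and TATAAA were found in Sod1 alone of the 7, at positions -56 and -37, in 12.4% and 13.6% of all promoters and in 15.1% and 6.89% of those of tested genes. TTGCNNAA was in 0 of the 7, in 10.8% of all and in 8.37% of tested genes' promoters. GGGCGG was in 6 of the 7, all but Cybb, in 35.7% of all and in 63.3% of tested genes' promoters. Each match is a description of letters.

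Per kilobase of gene length (RPKM, from the length column of the table), Gpx1 was the most abundant member in all 4 groups, with means of 461.4 for WT, 626.2 for miR-142 KO, 521.7 for CP CML and 783.3 for BC CML. Sod1 followed with means of 248.3 to 280.7 RPKM and Rac2 with 124.7 to 139.8. Cat, Cyba and Ncf1 lay close together between 45.06 and 77.29 RPKM, and their order differed between groups. Ncf4 had 22.88 to 43.44 RPKM and Sod2 10.83 to 14.94. Cybb was the lowest of the 9 in WT and miR-142 KO LSKs at 4.495 and 8.434 RPKM, and stood at 16.6 and 15.31 in CP and BC CML, just above Sod2. Relative to its mean, Cybb also had the widest spread between libraries (SD 21.9 CPM on a mean of 24.2 in WT) and Cat in CP CML the narrowest.

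**Figure D1:**
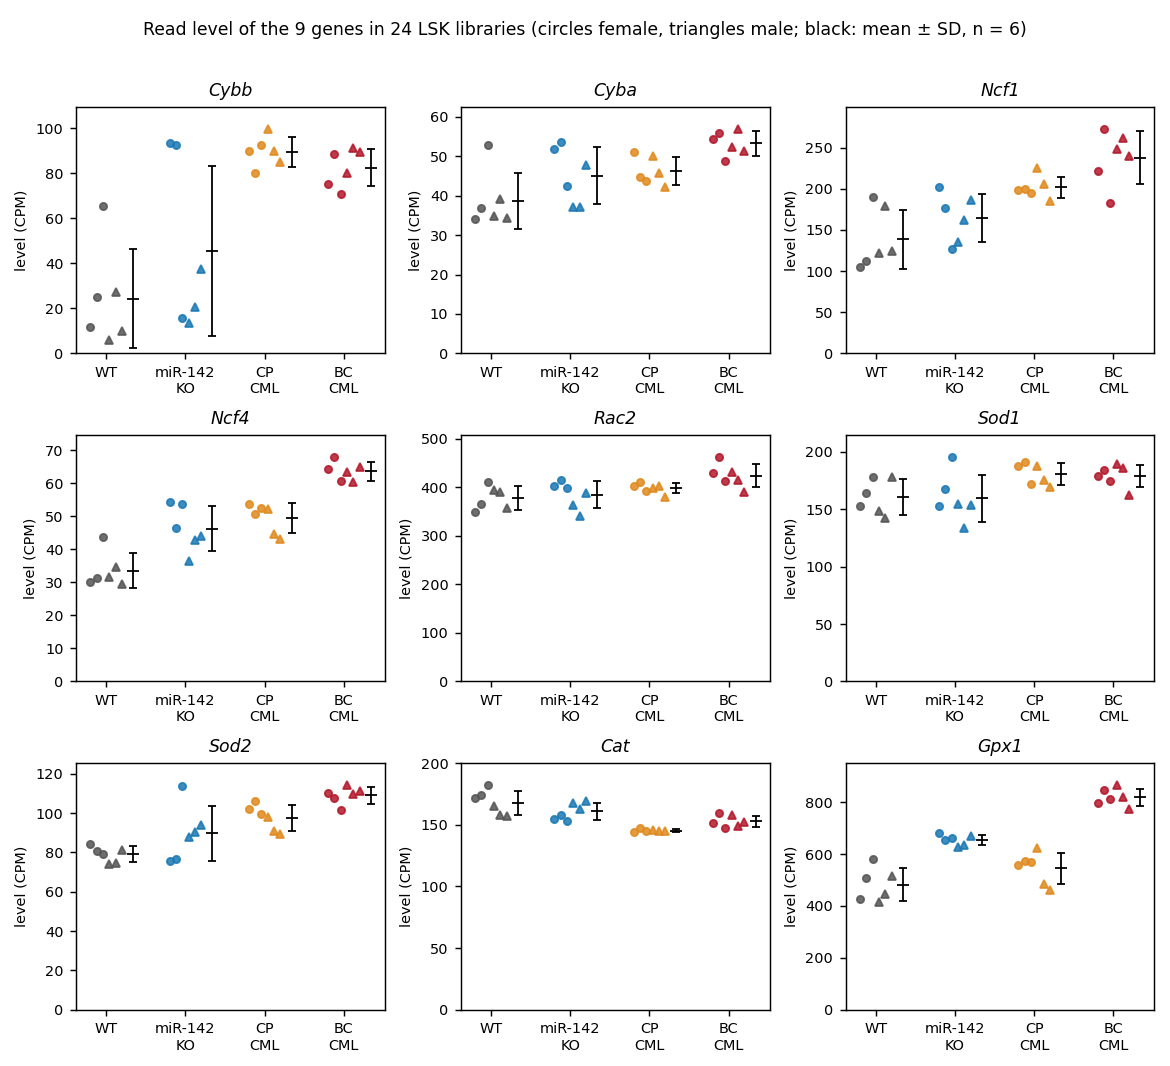
Level of each of the 9 genes in CPM (y axes start at 0) for the 6 libraries of each group, females as circles and males as triangles, with mean ± SD (n = 6) in black. Cybb spans 6.12 to 99.7 CPM while Cat spans 144.4 to 182.1 CPM, and Gpx1 in BC CML lies above every other library.

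Cybb encodes the catalytic membrane subunit (chrX:9435254-9469324, minus strand, mm10). Its level in WT LSKs had a low of 6.12, a median of 18.3 and a high of 65.5 CPM. In miR-142 KO LSKs these values were 13.4, 28.9 and 93.7 CPM. In CP CML LSKs they were 80.1, 89.9 and 99.7 CPM, and in BC CML LSKs 70.8, 84.4 and 91.1 CPM. All 12 CML libraries were above all 6 WT libraries, whereas the miR-142 KO libraries fell apart into 2 females at 93.7 and 92.5 CPM, within or near the CML range, and 4 others (1 female, 3 males) at 13.4 to 37.3 CPM.

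Cybb was 3.69-fold higher in CP CML than in WT LSKs (log2 difference 1.88, SE 0.47, adjusted p = 0.00265) and 3.40-fold higher in BC CML than in WT (log2 1.77, SE 0.47, adjusted p = 0.00233). BC and CP CML did not differ beyond the spread (log2 -0.12, 95% interval -1.05 to 0.82, adjusted p = 0.862). The miR-142 KO level lay between WT and CML and passed the test against neither neighbour: the log2 difference was 0.91 over WT (95% interval -0.06 to 1.87, adjusted p = 0.135) and 0.86 for BC CML over miR-142 KO (interval -0.09 to 1.81, adjusted p = 0.139). Without WT replicate 3 the miR-142 KO increase over WT was 1.51 with adjusted p = 0.00887. Among males alone, whose miR-142 KO libraries are all low, BC CML was above miR-142 KO by 1.87 (adjusted p = 0.00678) and CP CML above miR-142 KO by 1.95 (adjusted p = 0.0048). Among females alone Cybb passed the test neither for CP CML over WT (1.37, adjusted p = 0.128) nor for BC CML over WT (1.19, adjusted p = 0.138).

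Cyba encodes the membrane partner that stabilizes the catalytic subunit (chr8:122424771-122432940, minus strand). It was 34.2 to 52.8 CPM for WT, 37.1 to 53.7 for miR-142 KO, 42.2 to 51.2 for CP CML and 48.7 to 57.0 for BC CML, so that neighbouring groups overlapped. The highest WT value was again replicate 3, and the highest pair of miR-142 KO values again females 1 and 2, at 52.0 and 53.7 CPM. BC CML was 1.38-fold above WT (log2 0.46, SE 0.10, adjusted p = 0.000383), and CP CML was 1.20-fold above WT (log2 0.26, SE 0.10, adjusted p = 0.0413), a call that 10 of 34 alternatives lost. BC CML over CP CML (log2 0.20, interval -0.01 to 0.41, adjusted p = 0.117) and miR-142 KO over WT (0.22, interval 0.01 to 0.43, adjusted p = 0.094) did not pass. Without WT replicate 3 the latter was 0.34 with adjusted p = 0.00334.

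The cytosolic subunits were also highest in BC CML. Ncf1, the organizer (chr5:134220053-134229625, minus strand), had means of 138.6 ± 36.1 CPM (SD, n = 6 for each) for WT, 164.8 ± 29.3 for miR-142 KO, 201.5 ± 13.1 for CP CML and 237.8 ± 32.2 for BC CML. WT replicates 3 and 5, at 189.5 and 178.7 CPM, lay apart from the other 4 WT libraries at 104.5 to 124.3 CPM. Ncf1 rose with BCR-ABL in either miR-142 background, by 0.54 (log2, SE 0.14, adjusted p = 0.00255) for CP CML over WT and by 0.53 (SE 0.13, adjusted p = 0.00376) for BC CML over miR-142 KO. With miR-142 loss the differences were 0.25 (adjusted p = 0.154) without BCR-ABL and 0.24 (adjusted p = 0.167) with it. Without WT replicate 3 the former was 0.37 with adjusted p = 0.0264.

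Ncf4, the regulatory subunit (chr15:78244811-78262580, plus strand), was the oxidase gene that passed the test in each of these comparisons. Its low, median and high values were 29.4, 31.5 and 43.6 CPM in WT LSKs. They were 36.4, 45.2 and 54.5 CPM for miR-142 KO, 43.1, 51.6 and 53.7 CPM for CP CML, and 60.5, 63.8 and 68.0 CPM for BC CML. All 6 BC CML libraries were above all 18 others, while miR-142 KO overlapped WT and CP CML overlapped both. The log2 differences were 0.47 for miR-142 KO over WT (SE 0.09, adjusted p = 0.000465), 0.56 for CP CML over WT (adjusted p = 6.18e-05), 0.46 for BC CML over miR-142 KO (adjusted p = 0.00065) and 0.36 for BC CML over CP CML (SE 0.09, adjusted p = 0.00378). CP CML and miR-142 KO did not differ beyond the spread (0.10, interval -0.10 to 0.29, adjusted p = 0.437). Among females alone the BC over CP CML difference was 0.28 with adjusted p = 0.161.

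Rac2, the hematopoietic Rac GTPase (chr15:78559169-78572783, minus strand), varied little, from 341.2 to 461.9 CPM over all 24 libraries. It was higher in BC CML than in WT (log2 0.16, SE 0.05, adjusted p = 0.00602) and miR-142 KO LSKs (0.14, SE 0.05, adjusted p = 0.0306), the latter lost in 11 of 34 alternatives. BC over CP CML was 0.09 (interval -0.01 to 0.19, adjusted p = 0.163) and miR-142 KO over WT was 0.03 (interval -0.08 to 0.13, adjusted p = 0.711).

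**Figure D2:**
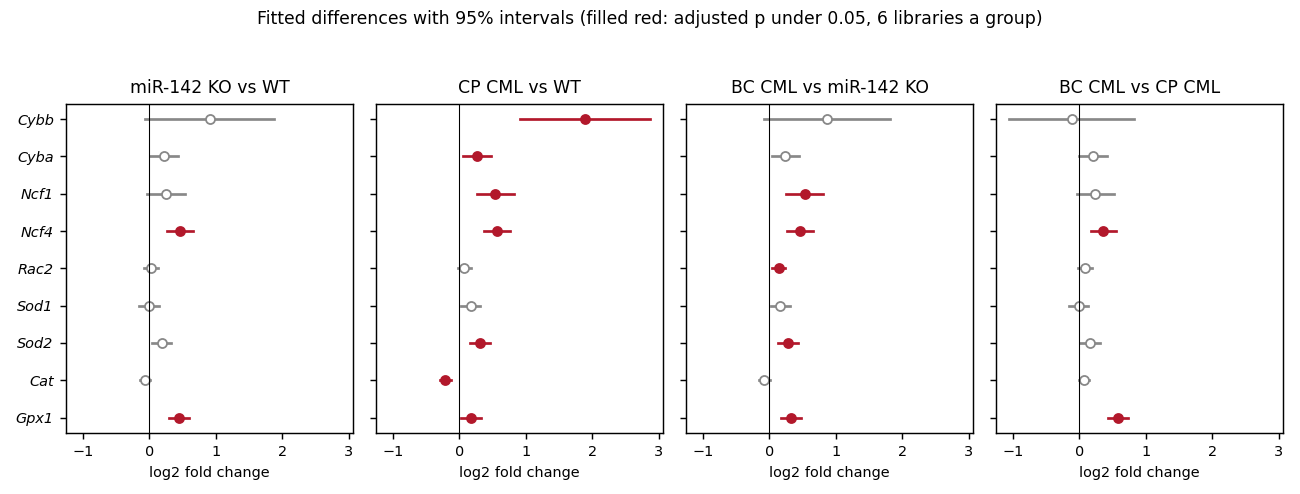
Fitted log2 fold change (x axis) of the 9 genes in 4 comparisons, with 95% intervals, filled red where the adjusted p is under 0.05. Gpx1 and Ncf4 are red in all 4 panels, and the Cybb interval is the widest in each.

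Markers of myeloid cells moved with the oxidase genes in some comparisons and not in others. The summed level of 7 monocyte or dendritic cell markers (Ccr2, Cd14, Csf1r, F13a1, Irf8, Ly86 and Siglech) was 129 to 807.3 CPM for WT, 321.2 to 998.1 for miR-142 KO, 771.5 to 1079 for CP CML and 1308 to 1617 for BC CML. Within WT the highest sum was that of replicate 3, where Cybb was highest too. Within miR-142 KO the females 1 and 2 had 998.1 and 750.3 CPM and males 5 and 6 had 673 and 868 CPM, with Cybb at 20.5 and 37.3 CPM in these males. By gene, 4 of the 7 markers rose and 1 fell in CP CML against WT, and 1 rose and 1 fell in miR-142 KO against WT. In BC against CP CML 0 rose and 1 fell (median 0.07), and the higher BC CML sum was mainly that of F13a1, with medians of 814.5 against 431.5 CPM. Of 5 neutrophil-primed progenitor markers, 5 rose in miR-142 KO and 5 in CP CML against WT, and 3 in BC against CP CML, with sums of 1247 to 4844 CPM for WT, 2763 to 7534 for miR-142 KO, 4484 to 7645 for CP CML and 5832 to 8562 for BC CML. Summed mast cell, basophil or eosinophil markers (7 genes) were 118.3 to 1996, 449.7 to 4311, 1644 to 3007 and 3203 to 6903 CPM in the same order. Most of the BC CML sum was Cpa3, with a median of 4164 CPM against 1133 in CP CML. Prg2 and Epx went the other way, with BC against CP CML medians of 72.17 against 525.4 and 24.08 against 218.6 CPM. By gene, 3 rose and 2 fell in BC CML, both against CP CML and against miR-142 KO. Summed HSC markers (Hlf, Mecom, Procr and Mllt3) went the other way, with medians of 555.8, 321.6, 356.5 and 229.6 CPM, most of it Hlf. By gene, 3 of the 4 fell and 0 rose in miR-142 KO against WT and in BC against CP CML, and 4 fell in CP CML against WT. Median Mecom was 78.23 CPM in miR-142 KO against 69.63 in WT, and 59.27 in BC against 47.64 in CP CML. Markers of T or NK cells (3 of 5 tested) rose for 3 in miR-142 KO against WT, with sums of 112.1 to 127.4 against 48.87 to 86.29 CPM and no overlap, and for 1 in BC against CP CML. Nearly all of these sums was Nkg7, at 93.42 to 114.2 CPM in miR-142 KO and 46.95 to 83.36 in WT. In miR-142 KO the medians of Cd3e, Cd3g and Cd3d were 0.62, 0.57 and 0.22 CPM. Klrb1c overlapped between miR-142 KO and WT. Megakaryocyte markers rose for 4 of 5 in miR-142 KO against WT, with median sums of 400.7 against 186.5 CPM, while 0 rose and 1 fell in BC against CP CML.

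Mature neutrophil markers (8 of 9 tested) summed to at most 193.2 CPM in any library, the highest values, 178.5 and 193.2 CPM, being those of miR-142 KO females 1 and 2. Of the 8 tested, 5 rose and 0 fell in miR-142 KO against WT, and 2 rose and 1 fell in CP CML against WT. In BC CML 0 rose and 3 fell against CP CML, and 2 rose and 6 fell against miR-142 KO. Macrophage markers summed to 67.53 to 86.65 CPM in CP CML females and 351.2 to 447.1 CPM in CP CML males, while Cybb was 80.1 to 92.7 CPM in those females and 84.9 to 99.7 in those males. B lineage and plasma cell markers (5 of 6 tested), a lineage that also uses the oxidase, summed to 40.79 to 927.9 CPM in WT and 139 to 715.1 in CP CML but at most 13.88 and 12.68 CPM in miR-142 KO and BC CML. No marker of these lists was at 0 in every library of a group. In bulk LSKs a change in the share of a cell type and a change in RNA per cell cannot be told apart, and the part of these cell types in the members' levels was not tested.

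**Figure D3:**
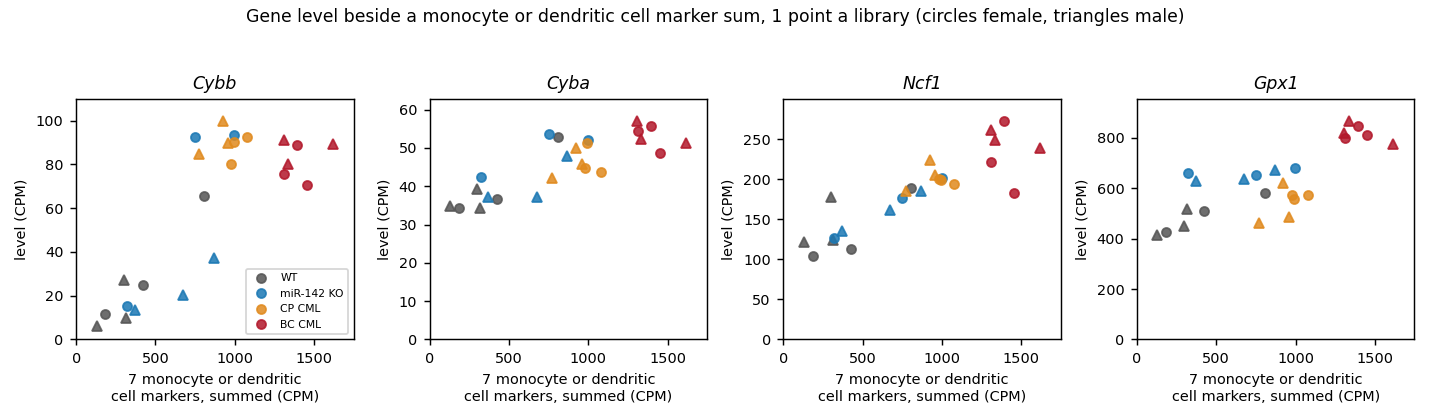
Level (CPM, y axis) of Cybb, Cyba, Ncf1 and Gpx1 against the summed level of 7 monocyte or dendritic cell markers (CPM, x axis), 1 point per library, all axes from 0. WT replicate 3 (grey circle at 807.3 CPM) and miR-142 KO females 1 and 2 lie near the CML libraries for Cybb, while Gpx1 separates BC CML from CP CML.

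Of the superoxide dismutases, Sod2 differed between groups more than Sod1. Sod2, the mitochondrial enzyme (chr17:13007839-13040063, plus strand), was 73.9 to 84.4 CPM for WT, 75.7 to 113.8 for miR-142 KO, 89.3 to 106 for CP CML and 101.4 to 114.1 for BC CML. It rose by 0.30 (log2, SE 0.07, adjusted p = 0.00163) in CP CML over WT, with no overlap, and by 0.28 (SE 0.07, adjusted p = 0.00369) in BC CML over miR-142 KO. The miR-142 KO values overlapped both WT and BC CML: females 1 and 2, high for Cybb, were lowest for Sod2 at 75.7 and 76.7 CPM, and female 3, low for Cybb, was highest at 113.8 CPM. For miR-142 KO over WT the difference was 0.18 (interval 0.03 to 0.33, adjusted p = 0.0512), and 19 of 34 alternatives put it past the threshold. For BC over CP CML it was 0.16 (interval 0.01 to 0.31, adjusted p = 0.0815), and 0.27 with adjusted p = 0.00659 among males alone.

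Sod1, the cytosolic enzyme (chr16:90220742-90226324, plus strand), had means of 160.7 ± 15.6 CPM (SD, n = 6 for each) for WT, 159.7 ± 20.5 for miR-142 KO, 180.5 ± 9.43 for CP CML and 179.1 ± 9.77 for BC CML, and the ranges of all 4 groups overlapped. With miR-142 loss it did not move beyond the spread, either without BCR-ABL (log2 -0.01, interval -0.16 to 0.14, adjusted p = 0.934) or with it (-0.01, interval -0.16 to 0.14, adjusted p = 0.919). CP CML over WT was 0.17 (interval 0.02 to 0.31, adjusted p = 0.0575), past the threshold in 20 of 34 alternatives. BC CML over miR-142 KO was 0.17 (adjusted p = 0.0663).

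Catalase and Gpx1, which both remove hydrogen peroxide, went in opposite directions in CP CML against WT, where the Gpx1 call sat at the threshold, and both were lower in CP CML than in miR-142 KO. Cat (chr2:103453904-103485153, minus strand) had low, median and high values of 157.2, 168.5 and 182.1 CPM in WT LSKs. They were 153.2, 160.3 and 169.5 CPM for miR-142 KO, 144.4, 145.1 and 147.5 CPM for CP CML, and 147.3, 151.8 and 159.3 CPM for BC CML. Every CP CML library was below every WT and every miR-142 KO library, and the SD in CP CML was 1.1 CPM against 9.79 in WT. Cat was the only member that fell in CP CML against WT (log2 -0.21, SE 0.04, adjusted p = 0.000135), and it fell also in BC CML against WT (-0.14, SE 0.04, adjusted p = 0.00293) and in CP CML against miR-142 KO (-0.15, adjusted p = 0.00416).

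Cat, which holds the match to the 3p seed, did not pass the test with miR-142 loss: the difference was -0.06 (interval -0.14 to 0.01, adjusted p = 0.197) for miR-142 KO over WT and 0.07 (interval -0.01 to 0.15, adjusted p = 0.138) for BC over CP CML. Among females alone Cat fell in miR-142 KO against WT (-0.19, adjusted p = 0.0307), as it did under upper quartile scaling (-0.11, adjusted p = 0.0209). By sex, WT females had 171.9 to 182.1 CPM and miR-142 KO females 153.2 to 157.9 CPM, while WT males had 157.2 to 165.1 and miR-142 KO males 162.7 to 169.5 CPM. The difference between the sexes in this effect was -0.24 on the log2 scale, with unadjusted p = 0.00139 and adjusted p = 0.315 in edgeR.

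Gpx1 (chr9:108339080-108340344, plus strand) was the member with the smallest adjusted p in both comparisons of miR-142 loss. Its low, median and high values were 414.8, 477.9 and 579 CPM in WT LSKs and 628, 657.4 and 679.3 CPM in miR-142 KO LSKs. They were 462, 563.7 and 622 CPM in CP CML and 774.1, 815.4 and 864.7 CPM in BC CML LSKs. All miR-142 KO libraries were above all WT and all CP CML libraries, and all BC CML libraries were above all 18 others. Gpx1 was 1.36-fold higher in miR-142 KO over WT (log2 0.44, SE 0.07, adjusted p = 5.09e-05) and 1.5-fold higher in BC over CP CML (0.59, SE 0.07, adjusted p = 1.46e-06), calls that held in each of 34 alternatives. With BCR-ABL it rose by 0.32 in the absence of miR-142 (SE 0.07, adjusted p = 0.00148). In its presence the rise, 0.18 (SE 0.07, adjusted p = 0.0499), sat at the threshold and was lost in 14 of 34 alternatives. The miR-142 effect with BCR-ABL minus that without it was 0.15 (interval -0.07 to 0.36, adjusted p = 0.468), so a difference between the pair of effects was not detectable.

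By count, 2 of 9 members rose and 0 fell in BC against CP CML (median log2 difference 0.16, beside 0.01 over all tested genes), where 20.4% of tested genes rose and 17.6% fell. At an unadjusted p under 0.05 there were 3. Groups did not overlap for 2 members, both higher, while over all genes 11.4% were higher and 9.29% lower without overlap. In miR-142 KO against WT 2 rose and 0 fell (median 0.22), against 19.9% and 16.4% of genes, with 1 higher without overlap against 8.31%, and none lower against 6.15%. In CP CML against WT 6 rose and 1 fell (median 0.26), against 22.5% and 22.9%, with 2 higher without overlap (Cybb and Sod2) against 11.9% and 1 lower (Cat) against 9.87%. In BC CML against miR-142 KO 5 rose and 0 fell (median 0.28), against 20.3% and 19.3%, with 2 higher without overlap against 6.09% and none lower against 4.48%. In BC CML against WT 7 rose and 1 fell, against 32.9% and 32.1%, and in CP CML against miR-142 KO 0 rose and 2 fell (Cat and Gpx1), against 17.2% and 19.4%. The counts in BC against CP CML and in miR-142 KO against WT were thus near the share of all genes called higher. Comparisons that share a group share its libraries.

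For 0 of 9 members did the effect of miR-142 loss differ between LSKs with and without BCR-ABL by edgeR, as by DESeq2, beside 3.99% of tested genes. At an unadjusted p under 0.05 there was 1, Cat (0.14, interval 0.03 to 0.25, adjusted p = 0.159). Cybb had the largest estimate, -1.02, with an interval of -2.37 to 0.32. Between the sexes 0 of 9 passed in edgeR with group in the fit, beside 0.651% of tested genes, and 1 at an unadjusted p under 0.05: Ncf4 was 0.16 higher in females (interval 0.04 to 0.28, adjusted p = 0.166). Cybb was 0.60 higher in females with an interval of -0.05 to 1.25 (adjusted p = 0.331). The effect of miR-142 loss differed between the sexes for 0 members in either background, beside 0% of genes in CML and 0.0074% (1 gene) without BCR-ABL, and at an unadjusted p under 0.05 for 0 and 1 members, the latter being Cat.

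**Figure D4:**
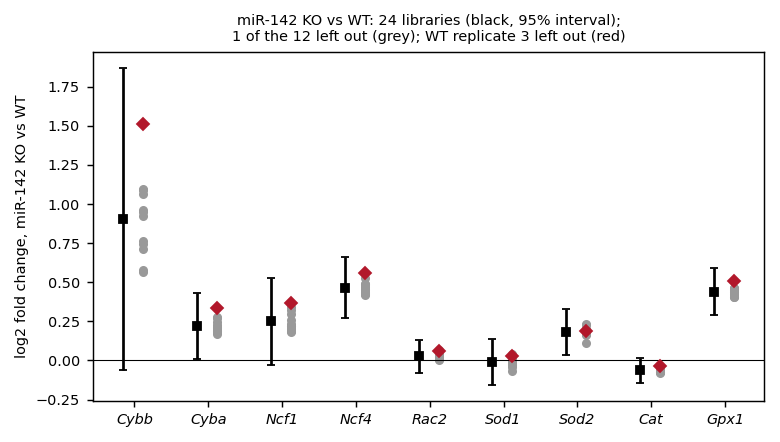
Log2 fold change of miR-142 KO over WT (y axis) for the 9 genes: the value from 24 libraries with its 95% interval (black), the values with 1 of the 12 libraries left out (grey), and that without WT replicate 3 (red). Cybb goes from 0.91 to 1.51 without that library, whereas Gpx1 goes from 0.44 to 0.51.

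The genes around the members were read from lists of the same pathway, whose counts stand beside 19.9% higher and 16.4% lower over all tested genes in miR-142 KO against WT, and 20.4% and 17.6% in BC against CP CML. Of 13 other oxidase subunits and homologues, 7 were expressed enough to test. Rac1, the ubiquitous Rac, rose by 0.38 (log2, SE 0.04, adjusted p = 7.97e-08) in miR-142 KO and by 0.24 (SE 0.04, adjusted p = 3.07e-05) in BC over CP CML. Mean Rac1 levels were 262.5 CPM for WT, 341.1 for miR-142 KO, 291.3 for CP CML and 344.3 for BC CML, the same order of means as Gpx1 except that the last pair lay close. Noxa1, which serves a non-phagocyte oxidase, fell by 1.24 and 2.24 in these comparisons and Nox1, a catalytic homologue, fell by 1.26 in miR-142 KO, both from means under 1 CPM.

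Among 20 assembly factors and Rac regulators, 6 rose and 2 fell in miR-142 KO against WT, and 3 rose and 5 fell in BC against CP CML, about the shares over all genes in the latter. Prkca, a protein kinase C that phosphorylates the organizer, rose by 0.49 (SE 0.09, adjusted p = 0.000204), and Tiam1, a Rac exchange factor, by 0.47 (adjusted p = 3.42e-05) in miR-142 KO. Mean Prkca was 61.87 CPM for WT and 86.69 for miR-142 KO, but 67.83 for CP CML and 66.67 for BC CML. Pak1, a Rac effector kinase, rose by 0.26 (adjusted p = 5.65e-06) in BC over CP CML, while Dock2 and Elmo1, which act together as a Rac exchange factor, fell by 0.24 (adjusted p = 0.000892) and 0.23 (adjusted p = 0.00647).

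The glutathione genes, which supply and recycle the substrate of Gpx1, numbered 21 tested. In miR-142 KO 7 rose and 1 fell (median 0.17), beside 19.9% and 16.4% of all genes, and in BC over CP CML 10 rose and 1 fell (median 0.24), beside 20.4% and 17.6%. Gsr, glutathione reductase, rose by 1.1 in miR-142 KO (log2, SE 0.14, adjusted p = 1.4e-06), from a mean of 95.56 CPM in WT to 205 CPM. Slc7a11, the cystine transporter, rose by 1.88 (SE 0.29, adjusted p = 2.45e-05) in miR-142 KO and by 1.37 (SE 0.26, adjusted p = 0.000195) in BC over CP CML, from low means of 0.68 and 3.85 CPM. Gclc and Gclm, the subunits of the enzyme that starts glutathione synthesis, were among the named genes of 1 comparison each: Gclc rose by 0.34 (adjusted p = 3.02e-05) in miR-142 KO and Gclm by 0.45 (adjusted p = 0.000109) in BC CML. Of the peroxidase homologues, Gpx7 fell by 2.23 (adjusted p = 5.83e-07) and 1.47 (adjusted p = 0.000114), and Gpx3, the secreted form, rose by 1.72 (SE 0.33, adjusted p = 0.000304) in BC CML.

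NADPH is used by the oxidase and by glutathione reductase. Of 16 tested genes that supply it, 10 rose and 0 fell in miR-142 KO (median 0.26), beside 19.9% and 16.4% of all genes. In BC over CP CML 5 rose and 2 fell (median 0.11), beside 20.4% and 17.6%. Idh1, the cytosolic NADP-dependent isocitrate dehydrogenase, had means of 51.97 CPM for WT, 116.4 for miR-142 KO, 74.38 for CP CML and 174.4 for BC CML. Its differences were 1.16 (SE 0.12, adjusted p = 7.25e-08) and 1.23 (SE 0.12, adjusted p = 2.28e-08), with no overlap in either pair. Pgd, of the pentose phosphate pathway, rose by 0.53 (adjusted p = 6.77e-05) and 0.45 (adjusted p = 0.000346), and Taldo1 by 0.42 (adjusted p = 8.23e-06) and 0.32 (adjusted p = 0.000212). Nnt, the mitochondrial transhydrogenase, fell by 0.55 (SE 0.12, adjusted p = 0.000845) in BC over CP CML.

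In the peroxiredoxin and thioredoxin list, 1 rose and 3 fell of 16 in miR-142 KO, beside 19.9% and 16.4% of all genes, and 5 rose and 1 fell in BC over CP CML, beside 20.4% and 17.6%. Prdx5, a peroxiredoxin of mitochondria and peroxisomes, rose by 0.56 (SE 0.08, adjusted p = 4.83e-06) and 0.53 (SE 0.08, adjusted p = 1.02e-05). Prdx4 fell by 0.44 (adjusted p = 0.00087) and Prdx2, an abundant cytosolic form in red cells, by 0.21 (adjusted p = 0.00231) in miR-142 KO, where the summed erythroid markers were 5.618 to 127.2 CPM beside 48.75 to 109.3 in WT.

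Of 3 dismutase partners tested, Slc31a1, the copper importer, rose in both comparisons, by 0.38 (adjusted p = 0.000554) and 0.33 (adjusted p = 0.00184), and Ccs, the copper chaperone of Sod1, rose by 0.16 (adjusted p = 0.03) in BC over CP CML. Of 7 heme and iron genes, 0 rose and 2 fell in miR-142 KO and 2 rose and 1 fell in BC over CP CML. Hmox1, heme oxygenase (mean 54.99 ± 76.35 CPM in WT, SD, n = 6), fell by 3.46 (SE 0.73, adjusted p = 0.000646) and 1.82 (SE 0.68, adjusted p = 0.0377), and Nqo1, a quinone reductase, by 0.66 (adjusted p = 0.00107) in miR-142 KO. Of 7 macrophage markers, 5 fell in miR-142 KO against WT and 1 fell in BC against CP CML, while 0 rose in either. Their part in the Hmox1 level was not tested.

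**Figure D5:**
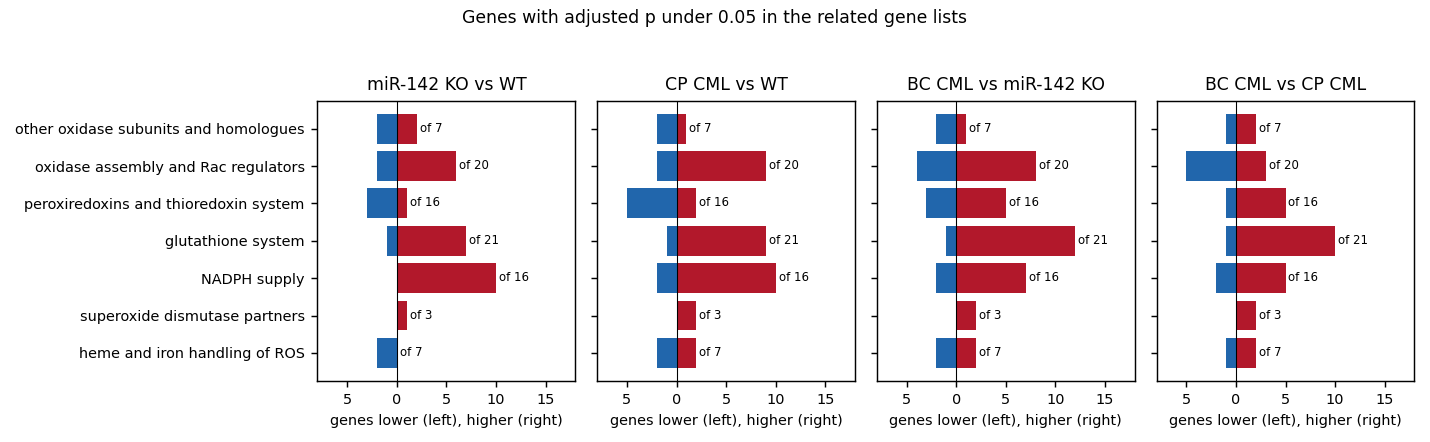
Number of genes with adjusted p under 0.05 in 7 related lists (rows) and 4 comparisons (panels), higher to the right and lower to the left on the x axis, with the number tested beside each bar. The glutathione list shows 7, 9, 12 and 10 higher genes from left to right, and NADPH supply 10, 10, 7 and 5.

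The pattern over the 24 libraries was compared between genes by Pearson's r of log2 CPM, as a description, since the points share 4 groups and their cell makeup. Between pairs of oxidase genes r was 0.65 to 0.87, the lowest being Cybb with Rac2 and the highest Cyba with Ncf1 and with Ncf4. After group means were subtracted, Cybb with Cyba kept 0.85 and Cybb with Sod2 was -0.44. Cat was negative with all 8 other members, from -0.55 with Cybb to -0.19 with Gpx1, but after group means were subtracted r was positive with 7 of them (0.17 with Cybb, 0.27 with Gpx1) and near 0 with Sod1 (-0.01). Among 11761 named genes at 1 CPM or more on average, those most like Cybb were AB124611 (r = 0.94), Nrg1 and Tlr1. Those most like Cyba were Tyrobp (0.92), Fcer1g and Lgals3, for Ncf1 they were Mcemp1 (0.91), Nucb2 and AB124611, and for Ncf4 Rrbp1, Rhog and Sh3bgrl3 (0.96 each). Rasgrp4 (0.85) was among the 3 genes most like Rac2. Sod1 was most like Pole3 (0.91), Selenoh and Snrnp40, Sod2 like Cct6a (0.96), Abce1 and Atic, and Gpx1 like Clta (0.97), Copz1 and Atp6v0d1. Cat had the weakest best match, Ak3 (0.84), which was 0.50 after group means were subtracted.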

How the data were processed

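The authors trimmed reads with Trimmomatic and FASTP, mapped them to mm10 with STAR 2.6.0 and counted them per gene with HTSeq-count 0.11.1; the values they deposited are raw read counts, without normalization, beside a gene length in kilobases. The annotation and strand setting were not given in the sources used here. The 24 count columns were tied to the 24 mice by title. In the GENCODE M21 basic set no member shared exonic bases with another gene. The members and all gene lists were chosen with earlier results of these data known.

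Differential expression was tested in edgeR 4.0.16 (R 4.3.3) with TMM normalization, filterByExpr, a quasi-likelihood fit to all 24 libraries together and p-values adjusted by Benjamini-Hochberg over all 13520 tested genes, at a threshold of 0.05. The authors' methods name the likelihood ratio test of the same package, which was run as an alternative. Folds and 95% intervals are from the quasi-likelihood fit. CPM used TMM-scaled totals of the tested genes, RPKM divided it by the deposited length, and log2 CPM had a prior count of 2. The steps were tested on simulated data. Of 100 genes changed by 0.5 and 100 by 1 on the log2 scale in BC against CP CML, 65 and 77 were called in a step of 13415 genes. No other gene was changed there, whereas 5137 of 13520 were called in that comparison of the data. The simulated recovery therefore does not give the sensitivity in the data. Named genes were the 9 members, up to 5 genes of each list by smallest p in BC CML against CP CML and in miR-142 KO against WT, the targeted gene and the 3 genes most like each member. A few genes that this rule names are not reported here. Alternatives were the likelihood ratio test, DESeq2 1.42.0, RLE and upper quartile normalization, no filter, a filter of 1 CPM in 6 libraries, sex as a covariate, each sex alone, only the 12 libraries compared, TPM for RPKM, other measures of likeness, and each library left out.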

Additional observations from a re-analysis of the deposited data

Results flagged for a closer look

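Of 36 sets of 6 values (9 genes in 4 groups), 3 held a library far from the other 5 by Dixon's test at its 95% critical value, which chance passes in about 1 set of 20. Cybb in WT replicate 3 was 65.53 CPM, with the next WT library at 27.18 CPM. Cyba in the same library was 52.76 CPM, with the next at 39.24 CPM. Its summed macrophage markers were 960.1 CPM against at most 176.4 CPM in the other WT libraries, and its summed monocyte or dendritic cell markers 807.3 CPM against at most 423.8 CPM. Their part in these values was not tested. Cat in CP CML replicate 2 was 147.5 CPM, with the next at 145.5 CPM, in a group whose SD was 1.1 CPM.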

How the results depend on the processing

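No called difference of a member changed direction under any alternative run. No paired analysis was possible because replicate numbers were given in accession order and mark no shared litter, batch or day. With the sex covariate CP CML against miR-142 KO had 4 members called (2 in the main analysis), beside 5057 of 13520 tested genes (4947 in the main analysis). With only the 12 libraries compared BC against CP CML had 5 members called (2 in the main analysis), adding Cyba, Ncf1 and Sod2. There 5619 of 12991 tested genes were called, against 5137 of 13520 in the main analysis. DESeq2 called 891 genes for the interaction of miR-142 loss with BCR-ABL against 539. Females alone (3 against 3) called 1 member in BC against CP CML, 3 in miR-142 KO against WT (2 higher, and Cat lower), 2 in CP CML against WT, 0 in BC CML against miR-142 KO and 0 in CP CML against miR-142 KO. Of 13584 tested genes, females alone called 1693 in BC against CP CML, 2308 in miR-142 KO against WT and 3059 in CP CML against WT. They called 938 in BC CML against miR-142 KO, 5821 in BC CML against WT, 1761 in CP CML against miR-142 KO and 28 for the interaction. Males alone called 2915 in miR-142 KO against WT, 3749 in CP CML against WT and 50 for the interaction. Single-sex fits hold fewer libraries. For the other changes the cause was not tested.

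With 1 library left out, members called were 2 to 3 in BC against CP CML, 2 to 5 in miR-142 KO against WT, 5 to 8 in CP CML against WT, 4 to 7 in BC CML against miR-142 KO, 8 to 9 in BC CML against WT, 2 to 4 in CP CML against miR-142 KO and 0 for the interaction. The 5 in miR-142 KO against WT came without WT replicate 3, and the 4 in CP CML against miR-142 KO without miR-142 KO replicate 1, 2 or 3. Genes called, of 13593 to 13624 tested, were 4404 to 5608, 4246 to 5062, 5348 to 6542, 4542 to 6471, 8332 to 9079, 4439 to 5905 and 375 to 787 in the same order. The 6471 in BC CML and the 5905 in CP CML, both against miR-142 KO, came without miR-142 KO replicate 3. Upper quartile scaling moved the share of higher genes among those called from 53.7% to 42.4% in BC against CP CML, from 54.7% to 42% in miR-142 KO against WT and from 50.6% to 40.2% in BC CML against WT, with medians over all genes of -0.03, -0.05 and -0.10 on the log2 scale. Under it Rac2 in BC CML against WT and miR-142 KO, and Cyba and Gpx1 in CP CML against WT, were no longer called, and Cat fell in miR-142 KO against WT (-0.11, adjusted p = 0.0209). A filter of 1 CPM moved that share from 47.9% to 37.8% for the interaction. The cells behind these bulk libraries were not counted by type, so a level here is one of the mixture. From single-cell RNA-seq of LSKs, the study reported more Elane-expressing and fewer Flt3-expressing cells in BC than in CP CML. The order of the members per length was the same in TPM. By Spearman's rho, 0 to 2 of the 3 genes named as most like a member were again among its top 3, and by r within groups 0 to 3.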
